A study of Mus musculus with 16 samples.

Results

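The comparison described here set the 2 arrays of R7T1 cells that had received exendin-4 for 0.5 h against the 2 arrays of that time that had not. They are 4 of the 16 arrays of the series. The arrays with exendin-4 held exendin-4 alone and exendin-4 together with BayK8644, and those without it held the DMSO vehicle and BayK8644 alone. Each treatment had 1 array at each of 0.5, 2, 6 and 24 h, so a treatment and time had no replicate. The 2 pair differences formed at 0.5 h were exendin-4 minus DMSO, and the combination minus BayK8644. A gene was described where both had the same sign, which held for 5399 of 10610 genes tested (50.9%), 3177 with both up (29.9%) and 2222 with both down (20.9%).

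R7T1 is a mouse pancreatic beta-cell line. The study, by its title, was about small molecules that make beta cells expand, and total RNA of the treated cells was read on Affymetrix arrays. Exendin-4 is a peptide agonist of the receptor for the incretin hormone GLP-1, and BayK8644, listed in the labels as BayK8644(2a), is a dihydropyridine that opens L-type calcium channels. The labels do not explain the 2a. Doses and culture conditions are not known here, and nothing states whether each array had a culture of its own. The p-values therefore rest on how far these arrays depart from additive effects of the 2 agents within a time. Part of that departure may be technical, and part may be a real interaction of the agents.

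In beta cells the GLP-1 receptor couples to the stimulatory G protein and raises cyclic AMP (cAMP), which activates protein kinase A (PKA) and strengthens glucose-stimulated insulin release. PKA phosphorylates the transcription factor CREB, which binds the cAMP response element and switches on immediate-early genes within minutes, without new protein being made. Many of the first targets encode transcription factors (the Nr4a orphan nuclear receptors and the AP-1 components of the Fos and Jun families), and others encode proteins that restrain the signal.

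The promoters of the 3 Nr4a genes, of Rgs2 and of Fosl2 are shown because these genes carry the main results below. They run from 250 bases before to 50 after the transcription start in RefSeq (GRCm38.p6), 5′ to 3′ along the gene. Capitals mark TGACG or its reverse complement CGTCA, the core of a cAMP response element. The Nr4a1 promoter lies at chr15:101266596-101266895 on the plus strand, Nr4a2 at chr2:57123954-57124253 on the minus strand, Nr4a3 at chr4:48045055-48045354 on the plus strand, Rgs2 at chr1:144004100-144004399 on the minus strand and Fosl2 at chr5:32136222-32136521 on the plus strand.
Nr4a1: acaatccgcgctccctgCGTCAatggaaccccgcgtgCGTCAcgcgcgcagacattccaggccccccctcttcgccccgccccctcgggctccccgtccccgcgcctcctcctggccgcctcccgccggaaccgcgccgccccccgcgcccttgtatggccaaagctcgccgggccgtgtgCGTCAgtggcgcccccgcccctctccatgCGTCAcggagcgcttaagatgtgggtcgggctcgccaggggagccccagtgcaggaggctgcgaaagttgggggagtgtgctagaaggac
Nr4a2: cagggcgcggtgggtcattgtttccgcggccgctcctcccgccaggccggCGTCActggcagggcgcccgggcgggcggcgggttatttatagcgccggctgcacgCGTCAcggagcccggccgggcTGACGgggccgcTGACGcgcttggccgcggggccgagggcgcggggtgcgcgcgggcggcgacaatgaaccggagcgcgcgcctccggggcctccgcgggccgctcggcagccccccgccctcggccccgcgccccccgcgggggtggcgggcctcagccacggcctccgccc
Nr4a3: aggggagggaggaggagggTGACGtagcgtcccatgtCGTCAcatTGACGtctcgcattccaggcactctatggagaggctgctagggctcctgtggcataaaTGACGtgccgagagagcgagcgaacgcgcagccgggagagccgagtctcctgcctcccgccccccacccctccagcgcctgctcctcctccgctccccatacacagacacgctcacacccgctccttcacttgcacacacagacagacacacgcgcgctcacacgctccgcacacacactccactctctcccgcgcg
Rgs2: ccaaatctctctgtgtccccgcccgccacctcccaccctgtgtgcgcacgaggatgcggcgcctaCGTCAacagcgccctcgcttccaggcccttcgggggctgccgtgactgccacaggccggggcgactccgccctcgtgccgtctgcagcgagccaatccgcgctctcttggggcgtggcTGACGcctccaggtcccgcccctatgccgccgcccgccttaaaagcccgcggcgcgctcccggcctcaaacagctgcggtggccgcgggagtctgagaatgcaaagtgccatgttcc
Fosl2: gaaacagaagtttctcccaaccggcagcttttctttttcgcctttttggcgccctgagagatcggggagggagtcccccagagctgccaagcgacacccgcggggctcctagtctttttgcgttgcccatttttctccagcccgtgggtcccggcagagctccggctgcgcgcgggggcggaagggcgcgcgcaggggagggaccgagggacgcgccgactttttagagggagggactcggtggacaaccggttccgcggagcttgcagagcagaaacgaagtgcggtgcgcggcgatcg

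The core motif occurred 4 times in each Nr4a promoter and 2 times in that of Rgs2, and its letters were not in the Fosl2 window. In Nr4a1 the matches began at -233, -213, -69 and -40 from the start. A promoter was at hand for 8682 of the genes tested, and 37.3% of these held TGACG or CGTCA on either strand. The share was 69.7% of the 33 immediate-early genes and 72.41% of the 29 CREB and cAMP target genes with a promoter, lists that overlap. Among the named genes that were higher with exendin-4 it was 6 of 13, and among those lower with it 4 of 11. The full palindrome TGACGTCA, which holds both core motifs, was found in 3.824% of all promoters, in 4 of the immediate-early and 4 of the CREB and cAMP genes, and in 0 of the 13 and 0 of the 11. A match is a description of the letters and was not tested as a site.

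The 4 arrays were alike in overall intensity, with a median of 10.76 to 10.97 over all 45101 probe sets. The beta-cell markers Ins2 and Pdx1 were high on all 4, at 15.60 to 15.69 and 13.33 to 13.40 (log2 intensity, as are all levels below). Glp1r, the gene of the receptor for exendin-4, stood at 2.06 to 2.07, at the lower limit of the scale, so no level can be given for it. Among markers of other cells, 4 of 10 alpha, delta and PP cell genes reached the filter level of log2 4. These were Gcg, Irx2, Sst and Ttr, with Gcg at 9.59 to 9.70. The summed linear intensity of all 10 was 82180 to 84250, against 266600 to 278700 for 24 beta-cell identity genes. Gcg at its level was a small part of the sum of the 10. That sum is therefore not a measure of how many alpha, delta and PP cells were present. Of acinar and duct genes 3 of 11 reached the filter level (summed intensity of the 11 genes 1155 to 1366). Of stromal, endothelial and leukocyte genes Col1a2 alone of 15 did (summed intensity of the 15 genes 86.08 to 91.06). Ptprc, Pecam1 and Pdgfrb were below it. The Actb control probe sets, whose 3′ minus 5′ difference reads RNA integrity, gave 0.62 and 0.60 without exendin-4 against 0.67 and 0.67 with it. The same difference for the Gapdh controls was -0.253 and -0.290 without exendin-4 (DMSO, BayK8644) against -0.259 and -0.207 with it (alone, combination), so it was higher in the second pair and not in the first. The Actb difference moves with the comparison, and its part in the results was not tested.

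Exendin-4 raised the orphan nuclear receptor gene Nr4a1, the single gene that passed the test at 0.5 h. The immediate-early or CREB and cAMP list members Fosl2, Nr4a3, Rgs2, Nr4a2, Klf4 and Gem, and Tob2, which is on neither list, had both pair differences upward and did not pass. The exendin-4 effect is the mean of the 2 pair differences. It was tested with limma against the spread pooled over all times, with Benjamini-Hochberg adjustment over the 10610 genes. With 1 array per treatment and time, this spread is the departure from additive effects of the 2 agents within each time. It does not measure scatter between replicates, and an interaction of the agents adds to it. At an adjusted p under 0.05, 1 gene rose (0.00943% of those tested) and 0 fell (0%). At an unadjusted p under 0.05, 124 were higher (1.17%) and 76 lower (0.716%). Both pair differences reached 0.5 in the same direction for 12 genes upward (0.113%) and 7 downward (0.0660%), and for 0 genes in opposite directions.

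**Figure D1:**
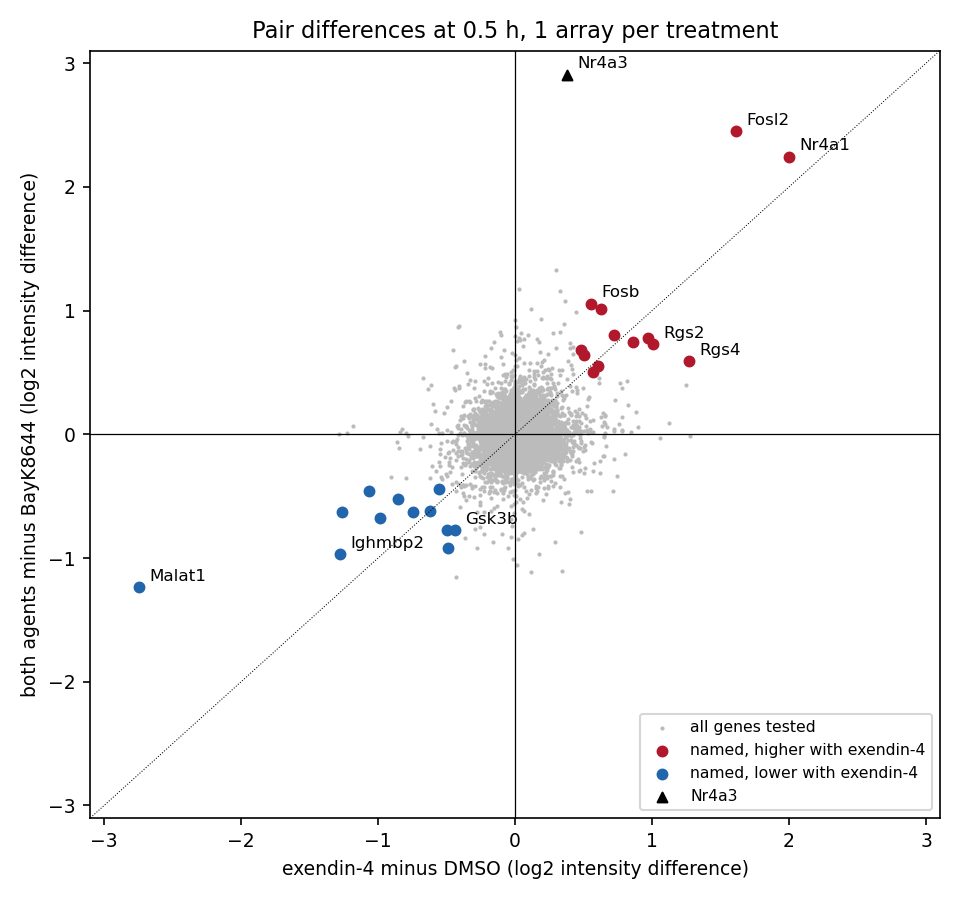
Exendin-4 minus DMSO (x axis) against the combination minus BayK8644 (y axis) at 0.5 h, both as log2 intensity differences between single arrays, with 1 point per gene tested and a dotted line of equality. Nr4a1 (2.00 and 2.24) and Fosl2 (1.62 and 2.45) lie near the line at the upper right, Nr4a3 (0.38 and 2.91) lies above it, and Malat1 (-2.75 and -1.24) is at the lower left.

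Nr4a1, which encodes a nuclear receptor that acts as an immediate-early transcription factor, had a level of 9.31 with DMSO, 11.31 with exendin-4, 11.75 with BayK8644 and 14.00 with the combination. The combination array was the highest of all 16 and each agent alone lay between it and DMSO, so the groups with and without exendin-4 overlap although both pairs rise. The pair differences were 2.00 and 2.24, and the effect was 2.12 ± 0.08 (SE, 4.36-fold, 95% confidence interval 1.94 to 2.31, limma adjusted p = 8.61e-06). One probe set of the gene was on the array. The call held in all 25 other settings and arrays left out, with effects of 2.00 to 2.24 and adjusted p of at most 0.00161.

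Nr4a3, a close relative of Nr4a1, stood at 4.26 with DMSO, 4.64 with exendin-4, 4.63 with BayK8644 and 7.54 with the combination. Only the array with both agents was high, and each agent alone was within 0.38 of DMSO. The levels on the arrays other than the combination were near the filter level. Its effect of 1.64 ± 0.45 did not pass (limma adjusted p = 1.0). It passed where the DMSO or the exendin-4 array of 0.5 h was left out, since the effect is then the combination minus BayK8644 alone (2.91, limma adjusted p = 0.0242). Nr4a2, the remaining member of the family, was at 9.22 with DMSO, 9.66 with exendin-4, 9.48 with BayK8644 and 10.47 with the combination. Both arrays with exendin-4 lay above both without it, with an effect of 0.72 ± 0.14 that did not pass (limma adjusted p = 0.577). All 5 kept probe sets of Nr4a2 had positive effects, from 0.07 to 0.97.

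Fosl2, which encodes the AP-1 component Fra-2, was at 4.48 with DMSO, 6.09 with exendin-4, 5.37 with BayK8644 and 7.81 with the combination. Both arrays with exendin-4 were above both without it. Its effect of 2.03 ± 0.26 was close to that of Nr4a1 in size but did not pass (limma adjusted p = 0.114), and it passed when the 4 arrays of 0.5 h were fitted alone (adjusted p = 0.0333). Fosb, of the same family, read 3.45 with DMSO, 4.0 with exendin-4, 6.60 with BayK8644 and 7.66 with the combination. The arrays with BayK8644 were the high ones, and the DMSO level was below the filter level. The pair differences were 0.55 and 1.06. Its exendin-4 effect was 0.80 ± 0.31 (limma adjusted p = 1.0) and its BayK8644 effect 3.40 (limma adjusted p = 0.00163).

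Fos itself showed the same order, with 9.72 for DMSO, 10.54 for exendin-4, 12.69 for BayK8644 and 13.13 for the combination. Its exendin-4 effect was 0.63 ± 0.10 (limma adjusted p = 0.201), against a BayK8644 effect of 2.78. Junb was at 8.24, 8.66, 9.24 and 9.94 on the arrays in that order, an effect of 0.56 ± 0.13 (limma adjusted p = 1.0). Jun, which pairs with Fos proteins in AP-1, differed by 0.03. In this family the exendin-4 effect of Fosl2 was thus the largest in value, although the members were not tested against each other.

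**Figure D2:**
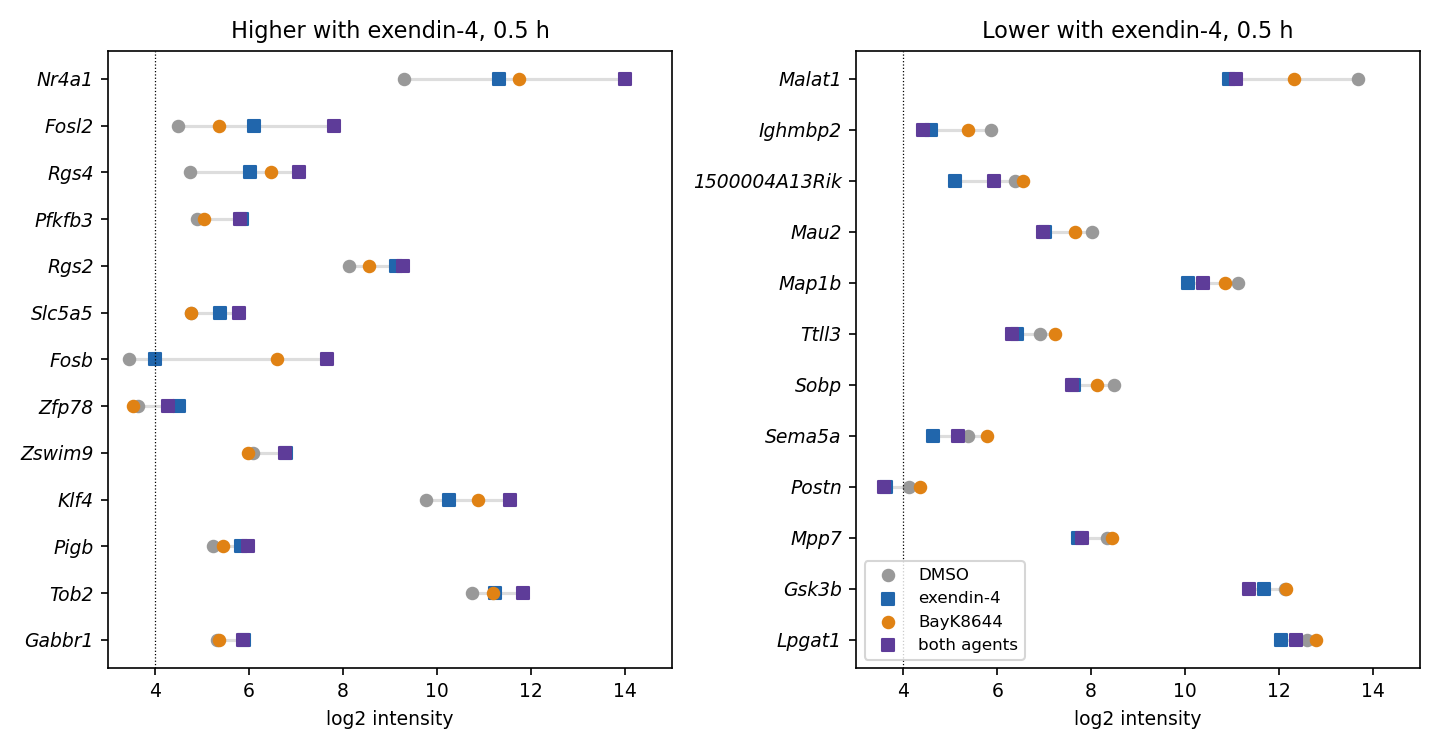
Log2 intensity on the 4 arrays of 0.5 h for the 13 named genes higher with exendin-4 (left) and the 12 lower with it (right); circles are arrays without exendin-4, squares those with it, and the dotted line is the filter level of log2 4. Nr4a1 spans 9.31 to 14.00, and in Rgs2, Pfkfb3, Zswim9 and Gabbr1 both squares lie to the right of both circles.

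Rgs2, a regulator that shortens G protein signalling and is itself a known cAMP target, had levels of 8.12 with DMSO, 9.13 with exendin-4, 8.55 with BayK8644 and 9.28 with the combination. Both arrays with exendin-4 were higher than both without it, and these were the 2 highest of the 16 arrays. The effect was 0.87 ± 0.15 (1.83-fold) and did not pass (limma adjusted p = 0.345). All 3 kept probe sets were positive, at 0.30, 0.87 and 1.08. Rgs4, of the same family, was at 4.75, 6.02, 6.46 and 7.05 for DMSO, exendin-4, BayK8644 and the combination, with an effect of 0.93 ± 0.39 (limma adjusted p = 1.0). Its level with BayK8644 exceeded that with exendin-4, so the groups overlap, and its other kept probe set was at 0.23. Of the 14 RGS and receptor feedback genes tested 0 passed, and apart from these 2 the effects lay between -0.17 and 0.13.

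Klf4, a Krüppel-like transcription factor gene, was at 9.77 with DMSO, 10.25 with exendin-4, 10.88 with BayK8644 and 11.56 with the combination, an exendin-4 effect of 0.58 ± 0.09 (limma adjusted p = 0.201). Tob2, which encodes an antiproliferative protein that recruits mRNA deadenylases, was at 10.74, 11.25, 11.18 and 11.83 in that order, an effect of 0.57 ± 0.08 (limma adjusted p = 0.114). The 3 kept probe sets of Tob2 ranged from 0.05 to 0.57. Gem, a small GTPase gene whose product restrains calcium channels, was at 10.11, 10.52, 11.09 and 11.62, an effect of 0.47 ± 0.07 (limma adjusted p = 0.201). All 3 had small standard errors, and for all 3 the combination array was the highest of the 4. With BayK8644, Klf4, Tob2 and Gem rose and passed, by 1.21, 0.51 and 1.04 (limma adjusted p = 0.000440, 0.0369 and 0.000188). Tob2 passed with the 4 arrays of 0.5 h fitted alone (adjusted p = 0.0440), and its DMSO level at 0.5 h lay below that of all 12 later arrays.

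The other genes named for their pair differences were less uniform in function. Pfkfb3, which encodes an enzyme that drives glycolysis through fructose 2,6-bisphosphate, was at 4.88 with DMSO, 5.85 with exendin-4, 5.03 with BayK8644 and 5.80 with the combination. Both arrays with exendin-4 were high and BayK8644 differed from DMSO by 0.15, and the effect was 0.87 ± 0.22 (limma adjusted p = 1.0). Zswim9 was at 6.07 and 5.97 without exendin-4 and at 6.79 and 6.77 with it, an effect of 0.76 ± 0.18. Slc5a5, the sodium iodide transporter gene, Pigb, an enzyme gene of GPI anchor synthesis, and Gabbr1, a GABA-B receptor subunit gene, had effects of 0.82, 0.58 and 0.54 from levels of 4.75 to 5.44. The 2 other kept probe sets of Pigb were at 0.01 and -0.12, and those of Gabbr1 at 0.11 and 0.00. Zfp78, a zinc finger gene, was at 3.64 and 3.52 without exendin-4, below the filter level, and at 4.50 and 4.27 with it (0.80 ± 0.13, limma adjusted p = 0.201). It passed with no filter on dim probe sets (adjusted p = 0.0446). Of the 13 genes named as higher, 9 had no overlap between arrays with and without exendin-4, against 19.8% of all genes with both arrays above. The rule picked these genes by their pair differences, so nothing is read from that count.

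As a list, the immediate-early genes leaned upward. The list was chosen with earlier results of these data known, so this lean is a description only. Of 43 tested, Nr4a1 passed and 0 fell, 32 had both pair differences up (29.9% of all genes) and 5 both down (20.9%). Their median effect was 0.20, against 0.01 for all genes tested. Both pair differences were at least 0.3 upward in 12 of them, where 0.481% of all genes were (0.386% downward and 0.320% in opposite directions): Nr4a1, Nr4a2, Nr4a3, Fosl2, Fosb, Fos, Junb, Klf4, Gem, Npas4, Ier2 and Zfp36. Npas4, a calcium-induced transcription factor gene, had an effect of 0.58, Zfp36, whose product destabilises mRNAs, of 0.40, and Ier2 of 0.42 (limma adjusted p = 1.0 for each). Egr1 was at 10.56 with DMSO, 11.31 with exendin-4, 13.76 with BayK8644 and 13.85 with the combination. Exendin-4 therefore differed from DMSO by 0.76 in Egr1, but the combination from BayK8644 by 0.09. The anti-proliferative gene Btg2 (0.35), the phosphatase gene Dusp1 (0.27), Atf3 (0.27), Id1 (0.24) and the clock gene Per1 (0.20) had smaller effects. Klf9 was lowest of the list at -0.36 ± 0.11, and its 6 kept probe sets ranged from -0.86 to 0.04.

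The list of CREB and cAMP targets overlaps with it, sharing 15 genes (34.9% of the immediate-early genes tested and 42.9% of these). It was chosen in the same way, so it is not separate evidence. Of 35 tested, Nr4a1 passed and 0 fell, 25 had both pair differences up (29.9% of all genes) and 3 both down (20.9%). The median was 0.20. Among 11 with both at least 0.3 upward (0.481% of all genes) were, beside genes already given, Rgs2, Rgs4 and Stc1. Stc1, a secreted glycoprotein hormone gene, was at 6.85, 7.25, 7.10 and 7.84 with DMSO, exendin-4, BayK8644 and the combination, an effect of 0.57 ± 0.27 (limma adjusted p = 1.0). Vgf, a neuropeptide precursor gene, differed by 0.21 and Pde4b, a phosphodiesterase gene that degrades cAMP, by 0.20. The other kept probe set of Pde4b was at -0.12. Several targets of the list had values near 0 at this time: Sst 0.01, Ppargc1a 0.01 and Pde10a 0.08. Tac1 had a mean of 0.11 from pair differences of opposite sign, -0.45 and 0.68. Irs2, an adaptor of insulin signalling and a classical CREB target in beta cells, was at 9.53, 9.19, 9.99 and 9.96, with a negative effect of -0.19 (limma adjusted p = 1.0).

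Among the parts of the pathway that carry the signal, of 46 cAMP and PKA machinery genes 0 passed in either direction. Both pair differences were up in 8 (29.9% of all genes) and down in 14 (20.9%), and the median was 0.00. Gnas, the stimulatory G protein gene, differed by 0.02, the catalytic subunit gene Prkaca by 0.06 and Creb1 by -0.06, and in all 3 the pair differences had opposite signs. The further PKA subunit genes Prkacb and Prkar2b differed by -0.16 ± 0.06 and -0.15 ± 0.06 (limma adjusted p = 1.0 for both). The pair differences of Prkacb were -0.16 and -0.15, with both arrays with exendin-4 below both without it. Adcy8, the gene of a calcium-stimulated adenylyl cyclase, had the lowest value of the list at -0.42, from levels of 4.24 to 4.86 near the filter level. The repressor gene Crem had pair differences of -0.08 and 0.68, so it did not have the same sign in both.

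Beta-cell identity genes were near 0. Of 22 tested 0 passed, 9 had both pair differences up (29.9% of all genes) and 8 both down (20.9%). The effects lay between -0.15 (Foxa1) and 0.16 (Myt1), with Ins2 at -0.05 and Pdx1 at 0.02. The hormone genes of other islet cells, Gcg and Sst, differed by 0.07 and 0.01. For MAP kinase feedback genes (21 tested) the median was 0.09, with 12 up and 3 down in both pairs (29.9 and 20.9% of all genes). Ier3, an early response gene on that list, had an effect of 0.45. For secretory granule genes (25) 3 were up and 10 down in both pairs (median -0.02), and for clock genes (18) 3 and 9 (median -0.05), against the same shares of all genes. In none of the lists of secretory granule, insulin, IGF and AKT, G1/S, clock, calcium channel and reference genes did a member pass with limma, and over all genes 1 passed and 200 had an unadjusted p under 0.05. The NFAT list (14) held Nr4a1 as its 1 call and had a median of 0.02.

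**Figure D3:**
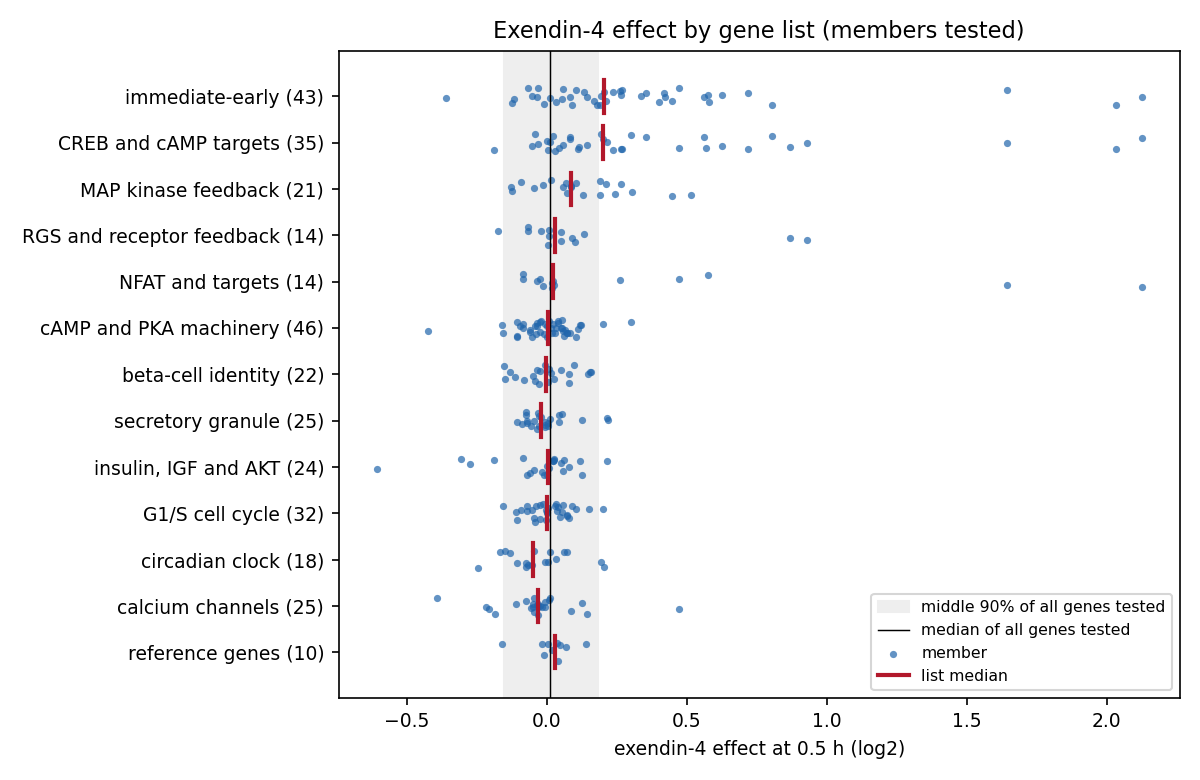
Exendin-4 effect at 0.5 h (log2, x axis) of each member tested, by gene list, with the list median as a red bar, the median of all genes as a line and their middle 90% as a grey band. The immediate-early and the CREB and cAMP lists have medians of 0.20, and the cAMP and PKA machinery list is centred at 0.00.

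Whether the response to exendin-4 depended on BayK8644 was tested as the difference between the pair differences. Without replicates, the error of this fit rested on the departures from additive effects of the agents at the later times. Those departures may hold real interactions. The test thus asked whether an interaction exceeded them, and could not compare it with scatter between replicates. A gene that did not pass is therefore not shown to be additive. With limma 0 of 10610 genes passed, 27 had an unadjusted p under 0.05 upward (0.254%) and 38 downward (0.358%). Nr4a3 had an interaction of 2.53 ± 0.38 (limma adjusted p = 1.0), and Nr4a1 of 0.24 ± 0.16, with values on the log2 scale that were close to additive. Without the filter on dim probe sets 6 genes passed.

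Exendin-4 was also set against BayK8644 at the same time, where the doses of the agents are unknown. In the fit on all arrays this difference equals the exendin-4 array minus the BayK8644 array, 1 array against 1. The DMSO and combination arrays do not enter the estimate, so the calls below rest on single arrays. Of all genes 4 were lower with exendin-4 (0.0377%) and 0 higher (0%), and at an unadjusted p under 0.05 the shares were 0.886% and 0.518%. BayK8644 itself raised 23 genes (0.217%) and lowered 0, with 1.56% higher and 0.490% lower unadjusted. Egr2, an early growth response gene, was at 3.69 with DMSO, 3.75 with exendin-4, 8.05 with BayK8644 and 8.51 with the combination, so it was below the filter level with DMSO and with exendin-4. The limma fit gave a difference of -4.30 (adjusted p = 0.000128), and counted from the filter level BayK8644 exceeded exendin-4 by at least 4.05 (log2). The others were Egr1 at -2.45 (limma adjusted p = 0.00127), Fos at -2.16 (0.000420) and Ier2 at -1.27 (0.0326). Egr1 and Fos were lost without the BayK8644 array of 0.5 h (adjusted p = 0.117 for both), which left Egr2 as the 1 call. Ier2 was lost with no intensity trend, with the median probe set and with all probe sets. It was also lost when any 1 array of 0.5, 2 or 6 h was left out. Nr4a1 differed by -0.44 ± 0.12 between the agents (limma adjusted p = 1.0). Rgs2, with 0.58 ± 0.21, Pfkfb3 and Fosl2, with 0.73 ± 0.37, had higher values with exendin-4 than with BayK8644, and none passed.

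The effect on Nr4a1 was larger at 0.5 h than later. It was 2.12 at 0.5 h, 0.95 at 2 h, 0.26 at 6 h and 0.23 at 24 h, each ± 0.08. With exendin-4 alone the level went from 11.31 at 0.5 h to 9.84, 9.23 and 9.52 at 2, 6 and 24 h, and with the combination from 14.00 to 12.17, 11.33 and 10.98. The effect at 0.5 h exceeded that at 2 h by 1.17 (limma adjusted p = 0.0323), that at 6 h by 1.86 (0.000596) and that at 24 h by 1.90 (0.000512). The comparisons with 6 and 24 h held in all 24 settings run. The comparison with 2 h did not pass with no intensity trend, with no filter, with the median probe set, with all probe sets, or when any 1 of the 12 arrays of the first 6 h was left out (adjusted p of 0.0567 to 0.959). No other gene passed in these 3 comparisons with limma. At an unadjusted p under 0.05, 1.06% of genes had a higher and 0.943% a lower effect at 0.5 h than at 2 h, 1.80 and 1.38% than at 6 h, and 2.05 and 1.84% than at 24 h.

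For other genes the change with time was not shown by a test. Fosl2 had effects of 2.03, 1.64, 0.97 and 0.48 at 0.5, 2, 6 and 24 h, Nr4a3 of 1.64, 1.46, 0.13 and 0.27, and Nr4a2 of 0.72, -0.14, -0.06 and 0.05. Rgs2 had 0.87, 0.21, 0.23 and -0.24, and Klf4 had 0.58, 0.25, 0.11 and 0.00. These values are largest at 0.5 h. Another set of cAMP targets had its largest values at 2 h. Ppargc1a, a transcriptional coactivator gene of energy metabolism, had 0.01 at 0.5 h and 1.97 at 2 h (limma adjusted p at 2 h = 0.0475), from levels near 3.6 at 0.5 h. Tac1, the substance P precursor gene, had 0.11 and then 2.20, and Crem 0.30 and then 1.35 (adjusted p at 2 h = 0.110 and 0.129). The difference between the times did not pass for any of these 3 (limma adjusted p of 0.769 or more). At 2 h 2 genes rose (0.0189%), Nr4a1 and Ppargc1a, and at 6 and 24 h 0 did (0%), and at none of these times did a gene fall with limma. At an unadjusted p under 0.05, 3.09% of genes were higher and 2.46% lower at 2 h, 4.26 and 2.70% at 6 h, and 3.34 and 2.57% at 24 h.

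**Figure D4:**
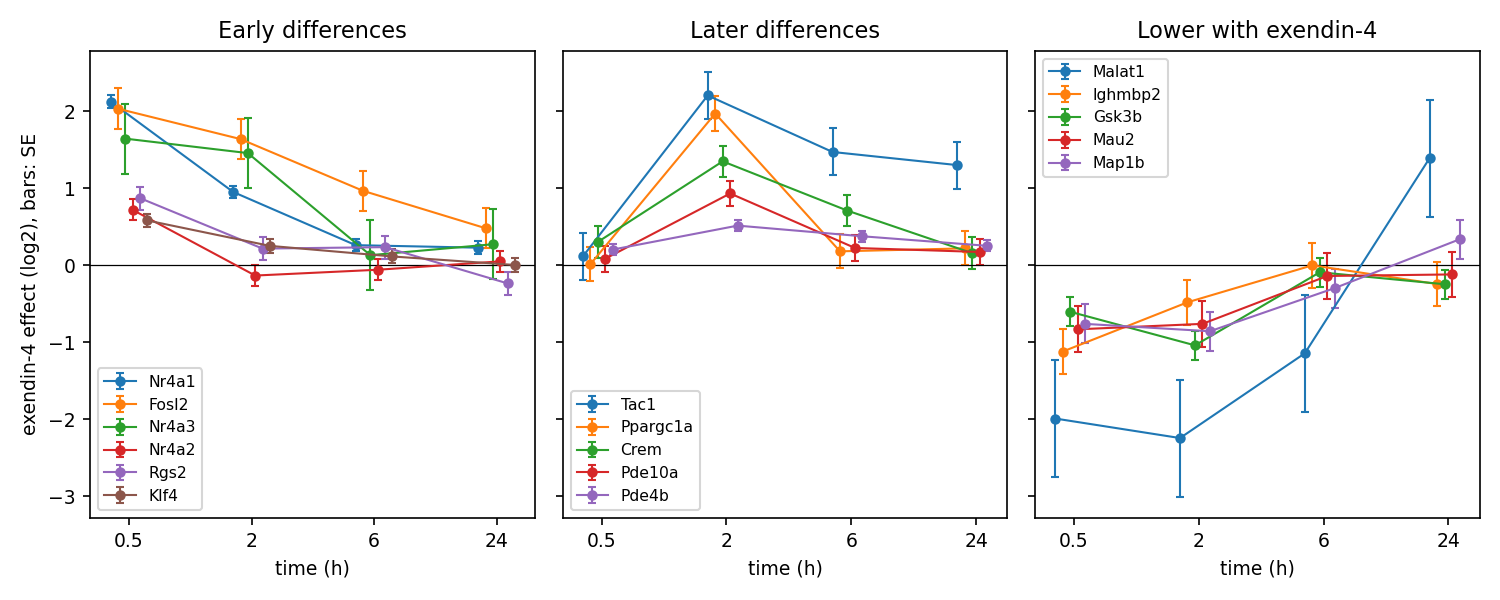
Exendin-4 effect (log2, y axis, bars are the SE of the limma fit) at 0.5, 2, 6 and 24 h (x axis) for genes with early differences (left), later differences (middle) and lower levels (right). Nr4a1 goes from 2.12 at 0.5 h to 0.23 at 24 h, Tac1 and Ppargc1a have their highest values at 2 h, and Malat1 is at -1.99 at 0.5 h and 1.39 at 24 h.

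The named genes with lower levels included 0 that passed. Malat1, an abundant nuclear long noncoding RNA, was at 13.69 with DMSO, 10.94 with exendin-4, 12.32 with BayK8644 and 11.08 with the combination. Both arrays with exendin-4 were low, and the effect was -1.99 ± 0.76 (limma adjusted p = 1.0). On later arrays Malat1 varied as widely without exendin-4, from 11.25 to 14.06, and reached 14.10 with exendin-4 at 24 h. Of its 7 kept probe sets 6 were negative, from -1.99 to -0.25, and 1 was at 0.02. With the median level of these probe sets on each array, the effect was also 0.02.

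Ighmbp2, a helicase gene, was at 5.87 with DMSO, 4.59 with exendin-4, 5.38 with BayK8644 and 4.41 with the combination, an effect of -1.12 ± 0.29 (limma adjusted p = 1.0). Both arrays with exendin-4 were below both without, and the 2 arrays without exendin-4 at 0.5 h were the highest of all 16. It passed when the 4 arrays of 0.5 h were fitted alone (adjusted p = 0.0440). Gsk3b, a kinase gene of insulin and Wnt signalling, was at 12.13, 11.69, 12.14 and 11.37 with DMSO, exendin-4, BayK8644 and the combination (-0.61 ± 0.19, limma adjusted p = 1.0). All 6 kept probe sets of Gsk3b were negative, from -0.61 to -0.01. Mau2, a cohesin loading factor gene, was at 8.01, 7.02, 7.65 and 6.97 (-0.83 ± 0.30), while its 2 other kept probe sets were at -0.05 and 0.06. Map1b, a microtubule protein gene, was at 11.14, 10.07, 10.85 and 10.39 (-0.76 ± 0.25), and its other kept probe set differed by -0.03.

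The remaining 7 were 1500004A13Rik (-0.95), Ttll3 (-0.70), Sobp (-0.69), Sema5a (-0.69), Postn (-0.63), Mpp7 (-0.62) and Lpgat1 (-0.50), all with a limma adjusted p of 1.0. Lpgat1, an acyltransferase gene, passed when the 4 arrays were fitted alone (adjusted p = 0.0440), yet 2 of its 4 kept probe sets had positive values of 0.07 and 0.11. The 2 other kept probe sets of Mpp7 were at -1.03 and -0.02, and with the median level of its probe sets on each array the effect was -0.07. Postn, a matrix protein gene, was near the filter level at 3.59 to 4.36. In all 12 named genes both arrays with exendin-4 lay below both without it, where 14.0% of all genes did, and again the rule chose them for this. At 2 h, on arrays the rule did not use, 12 of 12 had negative effects (41.82% of all genes), with a median of -0.77, and at 6 and 24 h 9 and 5 of 12 had (46.08 and 46.14% of all genes). The 7 with both pair differences at least 0.5 downward belong to a set of 136 probe sets described below. Of that set 133 were also negative at 2 h. Each time had 4 single arrays, so the 12 genes do not count as separate replications. Of the 12 named genes higher with exendin-4 that did not pass, 8, 6 and 7 of 12 were positive at 2, 6 and 24 h (58.18, 53.92 and 53.86% of all genes).

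The balance of higher and lower values depended on how a gene was read. Each gene was represented by its brightest kept probe set. When all 19204 kept probe sets were counted instead, a step added after the data were seen, 21 were at least 0.5 higher in both pairs and 136 at least 0.5 lower, with 7 in opposite directions. Of the 136, 129 were not the brightest of their gene, and 106 genes had such a probe set while their brightest was above -0.1. Among those upward 9 of 21 were not the brightest. Zfx, a zinc finger transcription factor gene, had such a probe set at 8.82 with DMSO, 6.08 with exendin-4, 7.39 with BayK8644 and 6.48 with the combination, while its brightest differed by -0.10. Atrx, a chromatin remodeller gene, had probe sets at -1.32 and -1.15 and its brightest at 0.06. Akap9, an anchoring protein gene for PKA, had 3 at -1.16, -1.07 and -1.07 and its brightest at 0.00. Values for the cAMP machinery list above are those of the brightest probe sets.

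These 136 probe sets were of 122 genes and of modest brightness, with a median level of 6.93 against 9.32 for all kept probe sets. Relative to each probe set's mean over the 16 arrays, their median at 0.5 h was 0.67 with DMSO, 0.45 with BayK8644, -0.26 with exendin-4 and -0.29 with the combination. At 2 h it was -0.04, 0.49, -0.54 and -0.69 in that order, and 133 of the 136 had a negative exendin-4 effect (48.1% of all kept probe sets). At 6 h it was 0.57, -0.48, -0.15 and -0.09, and at 24 h -0.14, 0.08, 0.44 and 0.05. Arrays without exendin-4 at the later times thus ranged from -0.48 to 0.57, as wide as the difference at 0.5 h. The Actb 3′ minus 5′ difference given above was 0.67 and 0.64 without exendin-4 against 0.80 and 0.70 with it at 2 h (for Gapdh -0.246 and -0.258 against -0.248 and -0.207), and the 2 probe sets of Actb itself differed by -0.16 and 0.34 at 0.5 h. The part of RNA integrity in these values was not tested. With all probe sets in the limma test Nr4a1 was still the 1 call, so none of the 136 passed.

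**Figure D5:**
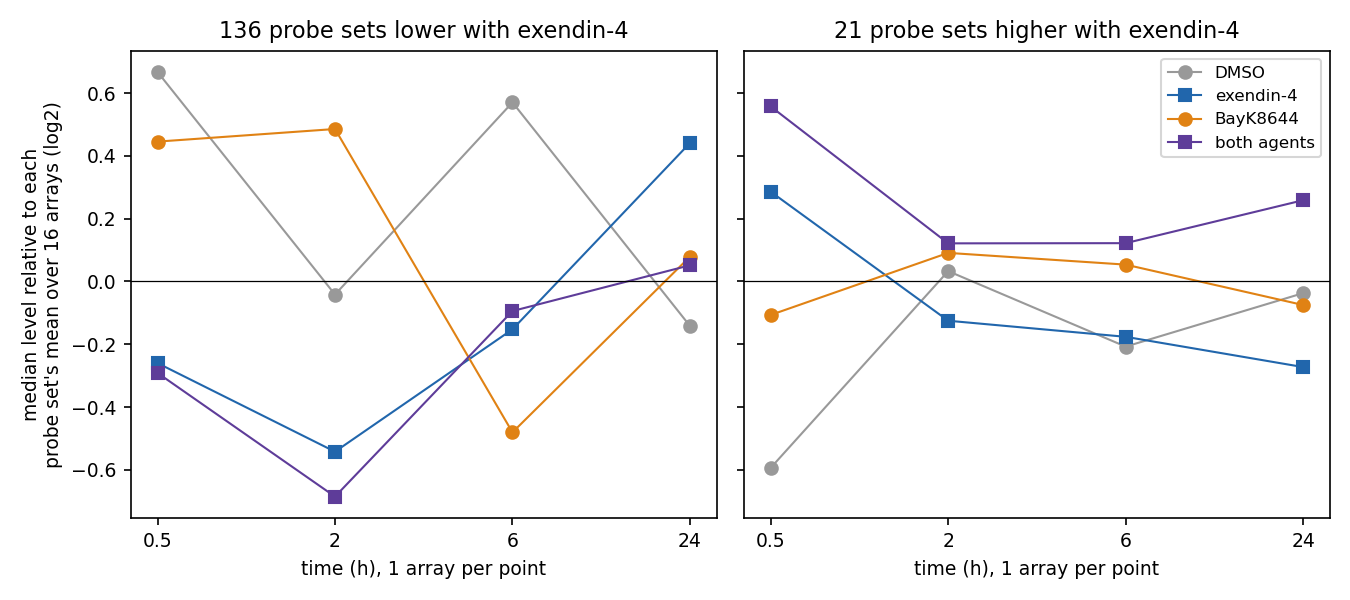
Median level, relative to each probe set's mean over the 16 arrays (log2, y axis), of the 136 probe sets at least 0.5 lower (left) and the 21 at least 0.5 higher (right) with exendin-4 in both pairs at 0.5 h, by time (x axis) and treatment, 1 array per point. The left set goes from 0.67 (DMSO) to -0.29 (combination) at 0.5 h, where it was chosen, and on later arrays without exendin-4 it ranges from -0.48 to 0.57.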

How the data were processed

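The deposited values are linear intensity values per probe set, made by the authors with GCRMA, per the submitters' processing notes, with no version or later step on record here. Per the labels' protocols, 5 ug total RNA went through a single amplification. Log2 was taken with no pseudocount. Of 45101 probe sets 34945 had 1 gene symbol, 932 several and 9211 none, and those with several or none were left out. A probe set was kept at log2 4 or above on at least 2 of the 16 arrays (19204), and the brightest stood for its gene (10610 genes). In R 4.3.3, limma 3.58.1 (lmFit, eBayes with intensity trend) fitted an effect of each agent at each time, additive within a time, on all 16 arrays (4 residual degrees of freedom). The p-values were adjusted by Benjamini-Hochberg across every gene tested, with 0.05 as threshold. The error is pooled over times, and the residual root mean square was 0.051 at 0.5 h against 0.070 to 0.092 at later times. The interaction fit had 3 residual degrees of freedom, all from the later times. The fit on the 4 arrays of 0.5 h alone took its error only from how far the 2 pair differences of that time disagree. Genes named for their pair differences are therefore not checked on other arrays by that fit. The scripts were tested on simulated data. The number of arrays limits the precision.

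Named genes were those that passed, the 12 up and 12 down with the largest smaller pair difference among those that did not, and members of lists. Members and lists were chosen with earlier results of these data known. Promoters are RefSeq sequences (GRCm38.p6) matched by gene ID. A gene counted as holding a motif where any of its promoters did. Alternatives changed the fit, trend, filter, normalization, pseudocount and probe set rule, and left out each array in turn. No other background correction was possible from processed values.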

Additional observations from a re-analysis of the deposited data

Results flagged for a closer look

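The effect of exendin-4 on Nr4a1 differed between times by a limma test of the difference itself, adjusted over all genes. It was larger at 0.5 h than at 2 h by 1.17 (adjusted p = 0.0323), than at 6 h by 1.86 (adjusted p = 0.000596) and than at 24 h by 1.90 (adjusted p = 0.000512). The difference from 2 h was lost in several settings given above, with adjusted p up to 0.959, and those from 6 and 24 h were not. The 4 treatments had 1 array each at a time, so no group of arrays was large enough to look for outlying samples.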

How the results depend on the processing

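Nr4a1 passed in all 25 alternatives (9 settings and 16 arrays left out in turn). The count of genes that rose was 1, and became 3 with the 4 arrays of 0.5 h fitted alone and 3 with no filter on dim probe sets; it was 1 to 2 with an array left out. The count that fell was 0, and became 2 with the 4 arrays alone. The interaction count of 0 became 6 with no filter, and could not be fitted without any 1 array of 0.5 h. The count for exendin-4 minus BayK8644, 4, became 8 with the 4 arrays alone and was 1 to 4 with an array left out. The count for 0.5 h minus 2 h, 1, became 0 with no trend, with no filter, with the median of a gene's probe sets and with all probe sets, and was 0 to 1 with an array left out. Counted over all kept probe sets, pair differences of at least 0.5 rose from 12 to 21 upward and from 7 to 136 downward, and the median over a gene's probe sets gave 9 and 28; both were chosen after the data were seen.

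Signs turned for genes that did not pass. With arrays centred on their median, Ppargc1a was at -3.68e-06 and Sst at -0.0061. With the median of a gene's probe sets, Actb was at 0.0878, Creb1 at 0.0323, Lpgat1 at 0.0880, Malat1 at 0.0160, Pde10a at -0.231, Pdx1 at -0.0434 and Pigb at -0.116. With 1 array left out, Gnas ranged from -0.0218 to 0.0640, Creb1 from -0.175 to 0.0536, Crem from -0.0805 to 0.684, Ppargc1a from -0.0713 to 0.0954, Prkaca from -0.0801 to 0.192 and Tac1 from -0.450 to 0.679, each turned by leaving out an array of 0.5 h. The causes were not tested. No analysis paired by replicate was possible, since each treatment and time had 1 array. The pair differences pair arrays only by BayK8644 status. Signal near or below the filter level limits Glp1r, Nr4a3, Fosb, Zfp78, Postn, Egr2 and Ppargc1a.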

Other observations

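Tob2, Pfkfb3 and Zfp78 had a level with DMSO at 0.5 h below that of all 12 later arrays, and Ighmbp2, Mau2 and Mpp7 a level above all 12.

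Some probe sets that were not the brightest of their gene were also higher in both pairs, a reading added after the data were seen. A probe set of the adenylate kinase gene Ak4 was at 5.44 with DMSO, 6.14 with exendin-4, 5.80 with BayK8644 and 7.65 with the combination, and the brightest of that gene differed by 0.81. A probe set of Hspa8, a constitutive heat shock protein gene, was at 6.45, 7.27, 7.07 and 7.70 in that order, while its brightest differed by -0.05. A probe set of the growth factor receptor gene Egfr was at 4.12, 5.53, 4.36 and 5.17, and its brightest differed by 0.20.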
